A study of Mus musculus with 6 samples.

Results

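The genes described are 6 keratins of basal and activated epithelium (Krt5, Krt14, Krt15, Krt17, Krt6a and Krt6b) and Trp63, which encodes the transcription factor p63. They were chosen by gene symbol, each matched 1 entry of the count table of 54532 genes, and all 7 passed the filter on low counts, as did 13874 genes in all. RNA was sequenced from 6 samples of 2208L, a mouse mammary tumour carried by Balb/c mice, none of them treated. The CTC group held 3 samples of circulating tumour cells, which had been propagated from blood. The PT group held 3 samples from primary tumours that were dissociated and enriched for tumour cells. The labels match CTC and PT samples with the same number. This is taken here to mean the same mouse, and the pairs are called mouse 1, 2 and 3 below. The labels describe propagation for CTC and not for PT, so handling and group cannot be told apart, and neither the ages of the mice nor the purity of the enriched cells is stated in the labels.

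Keratins form the intermediate filaments of epithelial cells as pairs of 1 type I and 1 type II protein. Krt5 (type II) and Krt14 (type I) are the classic pair of basal cells, in the mammary gland as in the skin, and Krt15 (type I) is another basal keratin. Krt6a and Krt6b (type II) and Krt17 (type I), usually seen with Krt16, are switched on in wounded or activated epithelium. p63 is required to form and maintain basal layers, and Krt5 and Krt14 are among its known targets. Alternative promoters of Trp63 give TAp63 and deltaNp63 proteins, and counts per gene do not separate them. Luminal mammary cells instead use the simple pair Krt8 and Krt18, with Krt7 and Krt19.

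Library totals ranged from 23845953 to 27897320 counts, and 3 counts, the upper limit that a count of 0 allows, were between 0.108 and 0.126 CPM (counts per 1000000 counts of the library), for counting error only. Between any pair of libraries, counts differed by at least 90.4 times sampling noise (chi-square per degree of freedom), so each was counted as 1 sample. Leukocyte genes summed to at most 8.75 CPM and endothelial genes to at most 2.15 CPM in any library. Fibroblast genes summed to between 11.7 and 207 CPM, and adipocyte genes reached 374 CPM in CTC 3 (of which Fabp4, a fatty acid binding protein, 370 CPM) and at most 2.39 CPM elsewhere. Of these 4 lists, the filter on low counts left 2 leukocyte, 6 fibroblast, 2 adipocyte and 0 endothelial genes for edgeR to test. None was called, but edgeR called 0 of all 13874 genes, and endothelial genes could not be called. With no filter on low counts, edgeR called Fabp4 (adjusted p = 0.00314), as it did 0.728% of the 27331 genes tested.

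The keratin genes lie in the type II cluster of chromosome 15 and the type I cluster of chromosome 11, and neighbours within a cluster can be close copies of each other. Krt6a and Krt6b are shown here because a read may fit either gene: their coding sequences were 97.8% identical over 1659 aligned bases, with a longest identical run of 280 bases. Of all 100-base windows of the Krt6a transcript 29.5% also occurred in the Krt6b transcript, and of 50-base windows 43.6%. The read length and the treatment of reads with several matches are not stated in the labels, so the split between Krt6a and Krt6b is uncertain. The 120 coding bases in which they differ most (bases 751 to 870 of each coding sequence, exons 3 and 4, minus strand of GRCm38, from GENCODE M21 transcripts) held 17 differences, set in capitals. They come from chr15:101692490-101692766 for Krt6a and chr15:101678309-101678585 for Krt6b, intron included in the coordinates only.
Krt6a: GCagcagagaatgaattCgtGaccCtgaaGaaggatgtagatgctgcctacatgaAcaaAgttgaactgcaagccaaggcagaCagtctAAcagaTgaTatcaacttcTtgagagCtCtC
Krt6b: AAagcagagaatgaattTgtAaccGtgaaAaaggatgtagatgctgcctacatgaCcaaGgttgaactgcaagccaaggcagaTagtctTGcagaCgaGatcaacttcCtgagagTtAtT

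The other members were easier to tell apart. Krt14 shared 2.88% of its 100-base windows with its neighbour Krt16 and none with Krt17, although the coding sequences were 86.0% and 83.8% identical. Krt5 shared 2.38% with Krt6a. An antisense gene, Gm49428, overlaps Krt6a and had at most 15 counts in any library, so it could add little even if strand was not kept in counting.

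Krt14 had the highest level per length and was well expressed in all 6 libraries. Krt14 (ENSMUSG00000045545, chromosome 11, 100203162 to 100207548, minus strand, GRCm38) was at 189.9, 288.2 and 1322 CPM in CTC 1, 2 and 3 and at 5018, 350 and 844.1 CPM in PT 1, 2 and 3. PT 1 was highest, CTC 3 came next, and CTC and PT overlapped. The log2 fold change, CTC minus PT, was -1.91 (SE 1.07, 95% interval -4.38 to 0.57; edgeR adjusted p = 0.726). It was -0.05 without PT 1, and -3.16 without CTC 3 (adjusted p = 0.315). With mouse as a replicate block it was -1.19.

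Krt5 (ENSMUSG00000061527, chromosome 15, 101707070 to 101712898, minus strand), the type II partner of Krt14 in basal cells, was high in 1 library only. It had 22856 counts (835 CPM) in PT 1, and 163 and 138 counts (6.84 and 5.78 CPM) in PT 2 and PT 3. In CTC it had 0, 1 and 171 counts (0, 0.0408 and 7.14 CPM). PT 1 thus stood 117-fold above the next library, CTC 3, which lay above PT 2 and PT 3. The log2 fold change was -7.04 (SE 2.64, 95% interval -13.15 to -0.94). It was the only member with an unadjusted p under 0.05 in edgeR (0.0289; adjusted p = 0.726). Without PT 1 the log2 fold change was -1.49 (adjusted p = 0.969), and without CTC 3 it was -13.58 (adjusted p = 0.231). DESeq2 gave no p-value for Krt5, and edgeR with no filter on low counts called it (adjusted p = 0.00255), a setting that called 0.728% of the 27331 genes it tested.

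The 250 bases before the Krt5 start are shown because Krt5 and Trp63, its known regulator, did not peak in the same library. They come from RefSeq (GRCm38.p6, chr15:101712906-101713155, minus strand), whose start lies 7 bases from the end of the gene in the count table.
Krt5: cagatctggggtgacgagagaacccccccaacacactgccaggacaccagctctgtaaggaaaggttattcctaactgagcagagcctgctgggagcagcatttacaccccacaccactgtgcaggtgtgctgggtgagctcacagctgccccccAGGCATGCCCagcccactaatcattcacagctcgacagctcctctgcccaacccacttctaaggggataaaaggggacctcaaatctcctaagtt
The capitals mark the 1 match to the p53-family half-site, the motif that p63 shares with p53, which starts at base -95 from the start. A match was found on either strand in 7.13% of 32851 RefSeq promoter windows of this length. Searched on both strands, the TATA box letters TATAAA had no match here and one in 12.4% of windows. Only these exact letters were searched, and the printed sequence holds the similar letters ATAAAA near its end. The AP-1 site TGANTCA had none here and a match in 6.75% of windows, the AP-2 site GCCNNNGGC none here and in 13.7%, and the GC box letters GGGCGG none here and in 32.7%.

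Trp63 (ENSMUSG00000022510, chromosome 16, 25683763 to 25892102, plus strand) was at 0.717, 8.86 and 160.9 CPM in CTC 1, 2 and 3, against 57.5, 28.2 and 94.6 CPM in PT. CTC 3 was the highest library and CTC 1 and CTC 2 the lowest, so the 3 CTC libraries lay on both sides of PT. The log2 fold change was -0.19 (SE 1.38, 95% interval -3.39 to 3.01; edgeR adjusted p = 0.98). Its sign turned without CTC 1 (0.39), CTC 2 (0.31) or PT 3 (0.26), and it was -3.65 without CTC 3 (adjusted p = 0.248), -2.07 with the replicate block and -2.51 in limma-voom. CTC 1 kept 5299 counts of Krt14 with 20 counts of Trp63. PT 1, with the most Krt5 and Krt14, had less Trp63 than CTC 3 or PT 3.

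**Figure D1:**
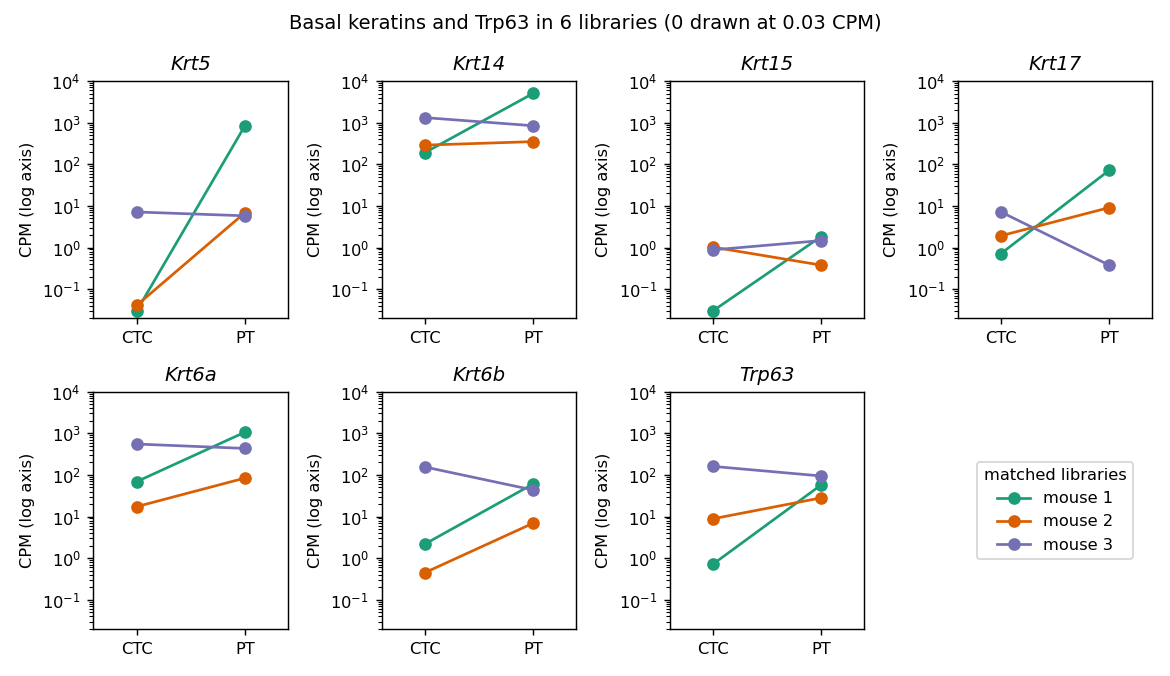
CPM on a log axis for the 7 genes, with CTC and PT of the same mouse joined by a line; values of 0 are drawn at 0.03 CPM. In mouse 1 (green) all 7 genes were lower in CTC than in PT, while in mouse 3 (purple) 6 of them were slightly or clearly higher in CTC, and Krt5 reached 835 CPM in PT 1 alone.

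Krt15 (ENSMUSG00000054146, chromosome 11, 100131758 to 100135928, minus strand) was close to absent. It had 0, 25 and 21 counts in CTC and 50, 9 and 35 counts in PT, at most 1.83 CPM. CTC 1 and PT 2 were lowest, and the groups overlapped. The log2 fold change was -1.01 (SE 1.2, 95% interval -3.79 to 1.76; edgeR adjusted p = 0.835). It was -0.42 without CTC 1, -0.56 without PT 1, -1.61 without CTC 2 and -2.17 in limma-voom.

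Of the keratins of activated epithelium, Krt6a exceeded Krt6b and Krt17 in every library. Krt6a (ENSMUSG00000058354, chromosome 15, 101689910 to 101694307, minus strand) was at 69.2, 17.4 and 553.7 CPM in CTC 1, 2 and 3, against 1065, 84.2 and 434.6 CPM in PT. Both libraries of mouse 3 and PT 1 were high, and the remaining 3 were below 100 CPM. The log2 fold change was -1.43 (SE 1.22, 95% interval -4.26 to 1.4; edgeR adjusted p = 0.791), -0.35 without PT 1, -0.90 without CTC 2 and -3.66 without CTC 3 (adjusted p = 0.26). With the replicate block it was -2.06 (95% interval -4.11 to -0.007, edgeR adjusted p = 0.766, unadjusted p = 0.0494), the only member under 0.05 unadjusted in that fit, as were 6.51% of all genes.

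Krt6b (ENSMUSG00000023041, chromosome 15, 101676023 to 101680287, minus strand) was at 2.19, 0.449 and 155.7 CPM in CTC 1, 2 and 3, against 60.5, 6.92 and 43.6 CPM in PT. As for Trp63, CTC 3 was highest and CTC 1 and CTC 2 lowest. Its log2 fold change of 0.38 (SE 1.65, 95% interval -3.43 to 4.2; edgeR adjusted p = 0.961) was the only positive one. The sign turned with the replicate block (-2.73), in limma-voom (-2.33), without CTC 3 (-4.84, adjusted p = 0.186) and without PT 2 (-0.12), and the value was 0.94 without CTC 1, 0.96 without CTC 2 and 0.98 without PT 1.

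Krt17 (ENSMUSG00000035557, chromosome 11, 100256217 to 100261029, minus strand) was at 0.717, 1.92 and 7.14 CPM in CTC 1, 2 and 3, against 71.7, 9.10 and 0.377 CPM in PT. PT held both the highest and the lowest library. The log2 fold change was -3.18 (SE 1.54, 95% interval -6.75 to 0.39; edgeR adjusted p = 0.726), -0.61 without PT 1, -2.08 with the replicate block and -1.68 in limma-voom. In PT 3, Krt17 had 9 counts beside 10377 counts of Krt6a, whereas PT 1 had 1963 and 29158.

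No member was called between CTC and PT in edgeR (0 of 7), and the background over all 13874 genes was 0% called. At an unadjusted p under 0.05, edgeR gave 1 of 7 members (Krt5) and 6.62% of all genes. This count moved with single libraries: it was 6 of 7 (all but Krt15) without CTC 3, where 12.1% of all genes passed, 2 of 7 without PT 2 (4.9%) or PT 3 (8.55%), and 0 of 7 without CTC 1 (3.14%), CTC 2 (6.43%) or PT 1 (3.88%). limma-voom called none of the 7 and no gene at all, and DESeq2 called none of the 6 members for which it gave a p-value and 0.32% of all genes. CTC and PT overlapped for all 7 members, while 12.5% of all genes tested had groups without overlap. Log2 fold changes were below 0 for 6 of 7 members, with a median of -1.43, and for 45.9% of all genes, with a median of 0.05. The members' median was -0.35 without PT 1, -3.66 without CTC 3, -2.07 with the replicate block and -2.17 in limma-voom. Nothing was called, so the direction of these medians is a description of the libraries, and in bulk RNA fewer basal cells and less RNA per basal cell cannot be told apart.

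**Figure D2:**
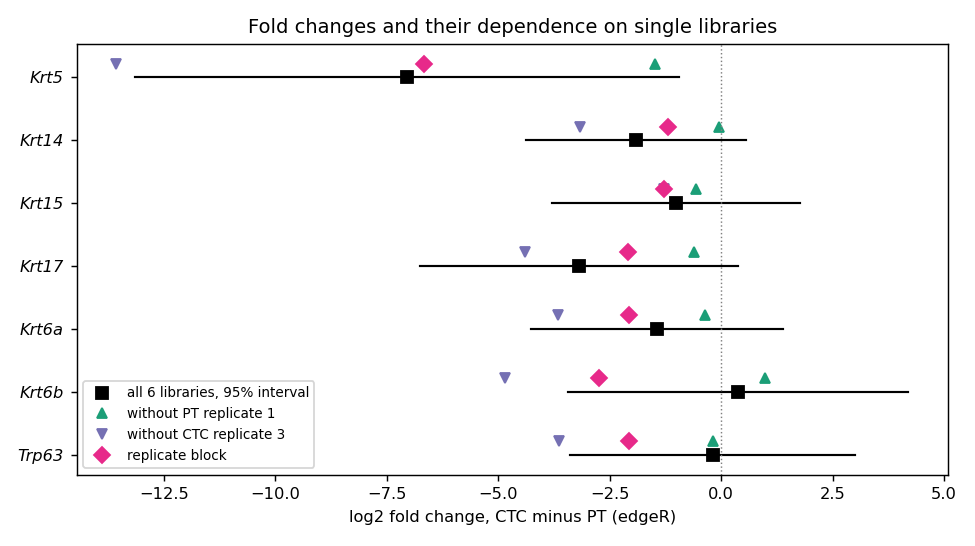
Log2 fold changes (CTC minus PT) from edgeR for the 7 genes: squares with 95% intervals use all 6 libraries, triangles leave out PT 1 or CTC 3, and diamonds use mouse as a block. Leaving out PT 1 brought Krt14 to -0.05, and leaving out CTC 3 placed all 7 genes below 0.

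Within mice the members moved in a shared order. Krt5, Krt14, Krt17, Krt6a, Krt6b and Trp63 were lower in CTC than in PT of mice 1 and 2 and higher in CTC of mouse 3, a pattern found in 6 of 7 members and in 14.4% of all genes. This pattern was noticed after the values were seen, and the members share their libraries, so they are not 6 separate observations. In mouse 1, PT exceeded CTC by 26.4-fold for Krt14, 15.4-fold for Krt6a, 27.7-fold for Krt6b, 100-fold for Krt17 and 80.2-fold for Trp63. Krt5 was at least 7765-fold higher and Krt15 at least 17.0-fold higher in PT of mouse 1, since CTC 1 had 0 counts and was set at 3.

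In mouse 2 the differences were smaller. PT exceeded CTC by 1.21-fold for Krt14, 4.85-fold for Krt6a, 15.4-fold for Krt6b, 4.74-fold for Krt17 and 3.18-fold for Trp63. For Krt5 the ratio was 167 (95% counting interval 29.6 to 6654), because CTC 2 had 1 count. Krt15 went the other way, 2.70-fold higher in CTC. In mouse 3, CTC exceeded PT by 1.57-fold for Krt14, 1.24-fold for Krt5, 1.27-fold for Krt6a, 3.57-fold for Krt6b, 18.9-fold for Krt17 and 1.70-fold for Trp63. With 1 library of each kind per mouse, these ratios have no replicate check.

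PT 1 was the highest library for 5 of the 7 members (Krt5, Krt14, Krt15, Krt17 and Krt6a), against 17.7% of all genes, and CTC 3 was highest for Krt6b and Trp63. Summed over the 7 genes, the level was 262.7, 317.8 and 2208 CPM in CTC 1, 2 and 3, against 7110, 485.5 and 1425 CPM in PT. PT 1, CTC 3 and PT 3 were thus the 3 libraries rich in basal keratin, 2 of them from mouse 3. No group held only high or only low libraries.

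Levels between genes were compared per kilobase of gene length (CPM per kb). The means over 6 libraries fell in the order Krt14 (760), Krt6a (153), Krt5 (64.8), Krt6b (20.1), Krt17 (9.78), Trp63 (6.97) and Krt15 (0.525). Krt14 exceeded Krt6a in 6 of 6 libraries, Krt6a exceeded Krt5 in 6 of 6, and Trp63 exceeded Krt15 in 6 of 6. The middle of the order was not firm: Krt5 exceeded Krt6b in 2 of 6 libraries, Krt6b exceeded Krt17 in 3, and Krt17 exceeded Trp63 in 4. The mean of Krt5 rested on PT 1, where it was at 380.1 CPM per kb, against at most 3.25 elsewhere.

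Krt14 and Krt5 were far from equal amounts. Per length, Krt14 was 7.51-fold above Krt5 in PT 1, and 64.0-fold, 183-fold and 231-fold above it in PT 2, PT 3 and CTC 3. CTC 1 and CTC 2 had 0 and 1 counts of Krt5 and give no such ratio. Krt6a was the main basal type II keratin in every library, with Krt14 between 2.67 and 22.8 times as high. Krt6a exceeded Krt6b by 29.2-fold and 35.7-fold in CTC 1 and CTC 2 but by 3.29-fold in CTC 3, and by 16.3-fold, 11.2-fold and 9.21-fold in PT, within the limit set by their shared sequence.

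As a share of all keratin signal per length (53 protein-coding Krt genes), the 6 basal keratins made up 4.71%, 8.57% and 44.7% in CTC 1, 2 and 3 and 58.7%, 9.65% and 24.6% in PT 1, 2 and 3. The group means were 19.3% ± 22.1 in CTC and 31.0% ± 25.1 in PT (SD, n = 3 each), a difference smaller than the spread within either group. Krt14 alone made up between 3.69% (CTC 1) and 44.7% (PT 1). Krt5 reached 5.95% in PT 1 and at most 0.137% elsewhere.

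**Figure D3:**
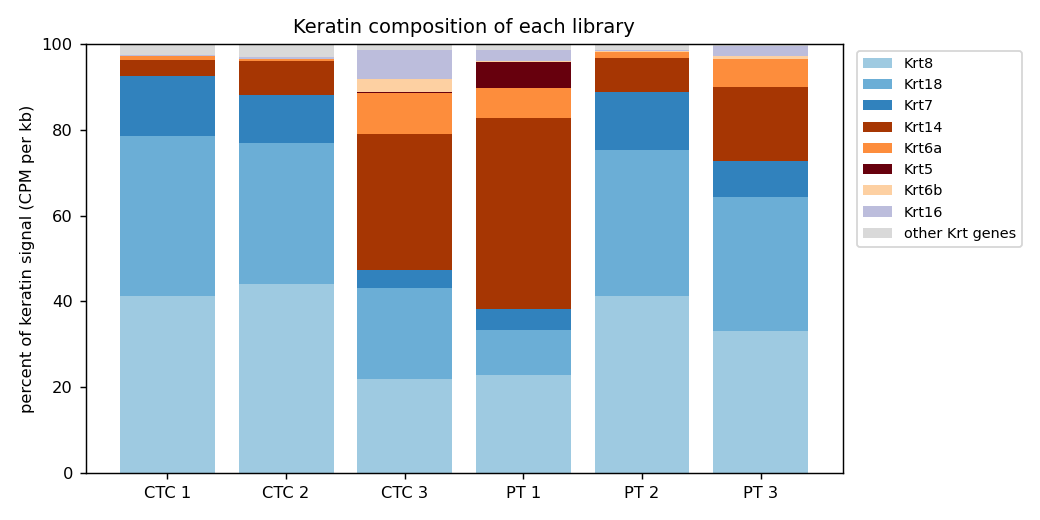
Percent of the summed keratin signal (CPM per kb of all coding Krt genes) taken by keratins in each library. The simple keratins Krt8, Krt18 and Krt7 are in blue, and Krt14, Krt6a, Krt6b and Krt5 in brown, orange, pale orange and dark red. Krt16 is in pale purple and all others, among them Krt15, Krt17 and Krt19, are in grey. Krt14 (brown) is widest in PT 1 and CTC 3, and the dark red band of Krt5 is broad in PT 1 alone.

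The simple keratins stayed high beside the basal ones. Krt8 was at 2373, 1739 and 1014 CPM in CTC 1, 2 and 3, against 2865, 2063 and 1801 CPM in PT, and Krt18 ranged from 719 to 1571 CPM over the 6 libraries. In PT 1 the high share of basal keratins came with Krt8 at its highest of the 6 libraries. Krt18 was at 950 CPM in PT 1, the lowest of PT (1246 and 1243 CPM in PT 2 and PT 3), and Krt7 at 2179 CPM. In CTC 3, Krt8, Krt18 and Krt7 were at their lowest (1014, 719 and 721 CPM). Krt19, a simple keratin in the type I cluster next to Krt15, went unlike its neighbours, with 87.9, 80.4 and 0 CPM in CTC 1, 2 and 3, against 4.71, 19.8 and 0 CPM in PT. None of the 4 simple keratins tested was called, with edgeR adjusted p-values from 0.769 to 0.931.

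The ratio of summed type I to summed type II signal per length was 0.75, 0.784 and 1.50 in CTC and 1.4, 0.752 and 1.03 in PT. It was above 1 in CTC 3, PT 1 and PT 3, the 3 libraries with the most Krt14. These ratios rest on the gene lengths in the table.

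Among other keratins above 10 CPM in a library, Krt16, the usual type I companion of Krt6, was at 8.93, 17.1 and 255 CPM in CTC 1, 2 and 3, against 239, 15.5 and 92.4 CPM in PT. It was high in the same 3 libraries as Krt6a. Krt79 was at 80.9 CPM in PT 1 and 24.8 CPM in CTC 3 and at most 10.8 CPM elsewhere, and Krt76 was at 21.6 and 18.3 CPM in those 2 libraries and at most 1.55 CPM elsewhere. Krt80 did not follow them, with 140 CPM in CTC 1 and between 47.8 and 67.9 CPM elsewhere.

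The genes most like each member were those with the smallest root mean square difference between centred log2 CPM profiles over the 6 libraries. For Krt14 these were Flrt3 (0.469), Anpep (0.553) and Lypd3 (0.573), and Lypd3 was at 204 CPM in PT 1, 74.5 CPM in CTC 3 and from 19.3 to 64.1 CPM elsewhere. For Krt5 the nearest were Krt79 (1.65), Galnt18 (1.85) and Lgals7 (2.03), a wider distance than for any other member. Krt6a was closest to Cnfn (0.762), Pou3f1 (0.78) and Dsg3 (0.781), the last a desmosomal cadherin of stratified epithelium that reached 33.9 CPM in CTC 3 and, in PT 1, 29.0 CPM. Krt6b was closest to Rab38 (0.552), Zfp750 (0.698) and P2ry1 (0.837), and Zfp750 is a known p63 target. For Trp63 the nearest were Wfdc12 (0.408), Kif26a (0.469) and Slc6a2 (0.477), for Krt17 Mgmt (1.10), Klk14 (1.14) and Mrc2 (1.15), and for Krt15 Ank1 (0.355), Cbr2 (0.392) and Kcnj9 (0.54). Within the members, Krt14 and Krt6a were nearest (1.02), then Krt6a and Krt6b (1.09), and Krt5 was at least 2.94 from each of the others.

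Among 25 genes of the p63 network, 20 were tested, none was called in either direction, and 12 had a log2 fold change below 0, with a median of -0.09. Perp, a desmosomal p63 target, was at 254, 217 and 407 CPM in CTC 1, 2 and 3, against 180, 178 and 223 CPM in PT. Sfn, the cell cycle inhibitor 14-3-3 sigma, was at 104, 87.0 and 167 CPM against 264, 44.7 and 144 CPM. Perp and Sfn were thus well expressed in CTC 1, where Trp63 had 20 counts. Other genes of the list were low in CTC 1. Zfp750 was at 0.0358 CPM there and 14.9 CPM in CTC 3, and Grhl3 was lowest there, at 1.83 CPM. Trim29 was at 1.18 CPM in CTC 1, 21.9 CPM in CTC 3 and from 0.921 to 73.8 CPM in PT. Tfap2c, which encodes an AP-2 factor, had the largest change (-3.47, SE 1.65, edgeR adjusted p = 0.726), from 0.0358, 0.572 and 23.5 CPM in CTC to 25.8, 153 and 67.8 CPM in PT. Cdh3 had the next largest change and went the other way (2.27, SE 1.23, edgeR adjusted p = 0.726). It was at 22.6, 13.5 and 3.13 CPM in CTC 1, 2 and 3, against 3.84, 3.94 and 0.0419 CPM in PT. The median of the list was 0.24 without PT 1, -0.51 without CTC 3, -0.30 without PT 2 and -0.16 without PT 3.

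Hemidesmosomes anchor the Krt5 and Krt14 filaments to the basement membrane through integrin alpha 6 beta 4, Col17a1 and laminin-332. All 10 genes of this list were tested, none was called in the main edgeR test, 6 were above 0 and 4 below, with a median of 0.20. Col17a1, the transmembrane collagen, followed Krt5 in part, with 4.98, 1.27 and 18.0 CPM in CTC 1, 2 and 3, against 86.2, 8.47 and 7.25 CPM in PT. The laminin-332 chain Lama3 went the other way, at 276, 109 and 42.5 CPM in CTC 1, 2 and 3, against 30.4, 16.4 and 30.9 CPM in PT (log2 fold change 2.42, SE 0.66, edgeR adjusted p = 0.726; DESeq2 adjusted p = 0.0178). Itga3, an integrin subunit, and Lamb3, another laminin-332 chain, had log2 fold changes of -0.32 and 0.15. Itgb4, the beta 4 subunit, was at 137, 110 and 237 CPM in CTC 1, 2 and 3, against 679, 191 and 470 CPM in PT. Its log2 fold change was -1.55 (SE 0.5, edgeR adjusted p = 0.726), and that of Itga6, the alpha 6 subunit, was 0.5 (SE 0.48). The list's median was -0.01 without CTC 1, -0.15 without PT 2, 0.09 without CTC 3 and 0.50 without PT 1.

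Desmosomes join keratin filaments of neighbouring cells. Of 9 desmosomal genes 8 were tested, none was called, 5 were above 0 and 3 below, with a median of 0.22. Jup, which encodes plakoglobin and lies 161 kb from Krt14, was highest in PT 1 at 817 CPM and between 246 and 370 CPM elsewhere. Dsp was at 244, 118 and 371 CPM in CTC 1, 2 and 3, against 189, 66.3 and 282 CPM in PT, and Pkp1 at 284, 198 and 305 CPM against 404, 80.5 and 231 CPM. This median was -0.02 without CTC 3, -0.20 without PT 2, 0.44 without CTC 2 and 0.58 without PT 1.

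**Figure D4:**
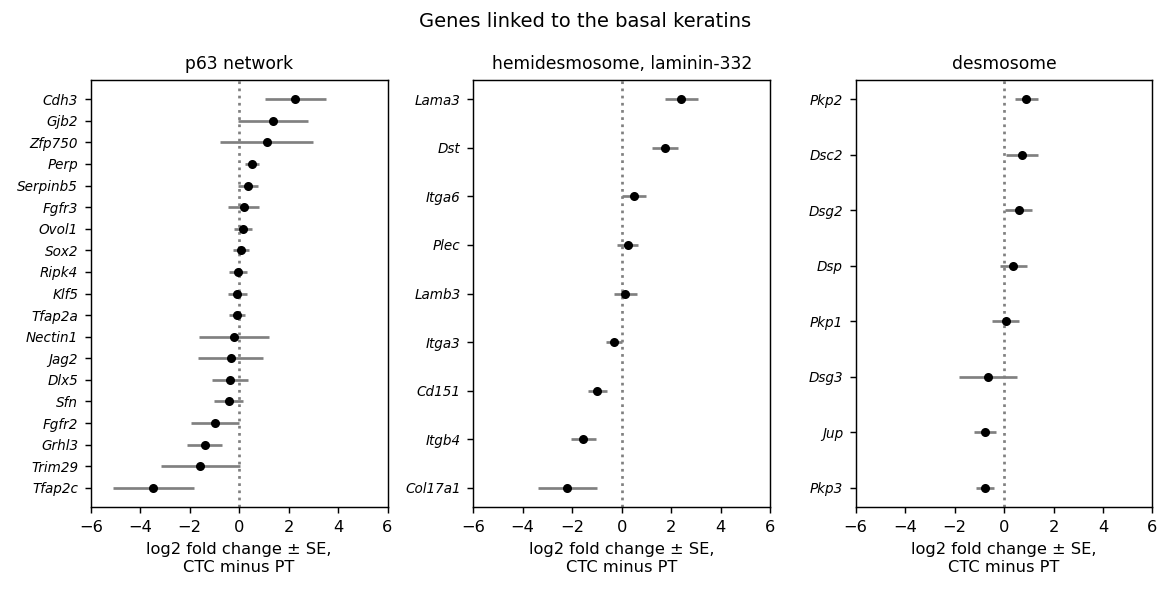
Log2 fold changes (CTC minus PT, points) with standard errors (bars) for tested genes of the p63 network, the hemidesmosome with laminin-332, and the desmosome. Values lie on both sides of 0 in each panel, from Tfap2c at -3.47 to Lama3 at 2.42.

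Contractile genes of myoepithelial cells, the basal cells of the normal mammary gland, were nearly absent. Acta2, the smooth muscle actin that defines them, had at most 15 counts per library, Myh11 at most 10 and Cnn1 at most 21. The list of 10 summed to between 94.7 and 194 CPM, of which Smtn, also expressed outside muscle, made up 92.1 to 188 CPM, and Mylk had at most 4.38 CPM. In PT 1, where Krt5 was at 835 CPM, Acta2 was at 0.0365 CPM.

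Markers of cornifying epidermis were measured because skin also expresses Krt5, Krt14 and Trp63. In PT 1 the 17 genes summed to 25.5 CPM, of which Sbsn 17.0 CPM, with Krt1 at 1.06, Krt10 at 3.11, and Krt2, Lor and Flg at 0. In CTC 3 they summed to 128 CPM and in the other 4 libraries to between 6.98 and 17.3 CPM, with Sbsn at 33.2, Krtdap at 31.8, Calml3 at 29.4 and, chosen after its value was seen, Ivl at 16.9 CPM in CTC 3. Flg was at 0 in all libraries. Of the 17 genes, 11 had their highest value in CTC 3, among them Krt1 at 8.35 CPM. Some of these had few counts even there, with 1 count of Krt2, 3 of Dsc1 and 12 of Tgm3. Krt10 was nearly even, at 3.88 CPM in CTC 3 and between 2.01 and 3.47 CPM elsewhere. Hair follicle genes summed to at most 14.4 CPM (CTC 1), nearly all from Tchh. CTC 3 also had the highest sums of the fibroblast and adipocyte lists (above). Of its fibroblast sum, Col3a1 gave 133 CPM, Pdgfra 41.3 CPM and Postn 30.9 CPM. Col1a1 was at 0.459 CPM in CTC 3, Dcn at 0.418 CPM and Lum at 0. Adipocyte genes other than Fabp4 were at most 1.46 CPM there, with Adipoq and Lep at 0. The part of these markers in the keratin levels of CTC 3 was not tested.

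Other markers of basal mammary cells had a median of the opposite sign to that of the keratins. Of 16 genes 13 were tested, none was called, and 8 were above 0 and 5 below, with a median of 0.30. Over all genes tested, 45.9% were below 0, with a median of 0.05. Cav2 and Cav1, the caveolins, were at 1074 CPM or more in every CTC library and at 974 CPM or more in every PT library. Lgals7, galectin-7 of stratified epithelium, ranged more widely, with 0, 0.449 and 14.9 CPM in CTC 1, 2 and 3, against 72.9, 9.44 and 41.2 CPM in PT. Its log2 fold change was -3.14 (SE 1.68), while Mme, at most 6.01 CPM, had 2.65 (SE 1.39). Itgb1 was also higher in CTC, at 1399, 686 and 605 CPM in CTC 1, 2 and 3, against 359, 414 and 540 CPM in PT. The edgeR adjusted p was 0.726 for each of these genes. The list's median was 0.12 without CTC 1, 0.65 without CTC 2, 0.73 without PT 1, 0.53 without PT 3 and 0.09 in limma-voom. Of the 12 genes of activated keratinocytes found, 8 were tested and none was called. Their median of 0.27 became -2.20 without CTC 3, 0.09 without PT 3, 0.17 without PT 2, 0.48 without CTC 2, -0.53 with the replicate block and -0.35 in limma-voom.

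Of the nearest tested coding genes outside the keratins, some were even across libraries and some were not. Eif1, 112 kb from Krt14, lay between 484 and 739 CPM, and Eif4b, 361 kb from Krt5, between 594 and 916 CPM. Near Trp63, P3h2 was highest in CTC 3 (51.8 CPM) and between 17.6 and 37.3 CPM elsewhere. Tprg was at 0.215, 3.63 and 8.60 CPM in CTC 1, 2 and 3, against 5.52, 3.27 and 10.8 CPM in PT, lowest in CTC 1 like Trp63. Cldn1, a tight junction gene 465 kb from Trp63, was at 116, 11.5 and 6.47 CPM in CTC 1, 2 and 3, against 32.9, 13.0 and 4.48 CPM in PT.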

How the data were processed

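The authors deposited raw read counts per Ensembl gene, 1 column per library, with gene positions and lengths in bases (a deposited value in another unit, used for levels per kb). Per the submitters' processing notes, reads were aligned with HISAT2 to GRCm38 (mm10). The read counter, annotation release and strand setting were not named in the labels. All 7 members had the same start and end in GENCODE M21, as did 98.3% of the 54409 genes in both.

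CPM used library totals. Counts were tested over all genes with edgeR 4.0.16 (glmQLFit and glmQLFTest, TMM, filterByExpr; R 4.3.3), with Benjamini-Hochberg adjustment and a threshold of 0.05. Standard errors came from the F statistic. Profiles for the likeness search used log2 CPM with a prior count of 2. The scripts were tested on simulated data. The labels match same-numbered libraries, taken here as 1 mouse, so a fit with mouse as a block was tried too. Deviations from group means of same-numbered libraries correlated across genes at -0.013, 0.182 and 0.311. Coding sequences were aligned with Biopython 1.88.

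The members and the 14 lists were chosen with earlier results of these data known. From each list, up to 3 genes with the highest mean CPM and up to 2 with the largest change were named, with up to 5 called genes and, among other keratins, those above 10 CPM in a library. Of the genes this rule picks, 2 are not reported here by name, though the list counts and medians include them. Other list genes named lie outside this rule, defining markers such as Acta2 or Krt1 and further genes such as Grhl3, all named with their values known. The labels call same-group samples biological replicates, with 3 per group. Alternatives were the block, RLE and upper-quartile scaling, DESeq2 1.42.0, limma-voom 3.58.1, 2 other filters and leaving out each library.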

Additional observations from a re-analysis of the deposited data

How the results depend on the processing

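No member was called under any scaling, tool, filter or left-out library tried, except Krt5 with no filter on low counts (-7.02). Of the 90 values of members under alternatives, 82 kept their direction and stayed uncalled. Krt6b, at 0.38, turned to -2.73 with the replicate block and -2.33 in limma-voom, and to -4.84 without CTC 3 and -0.12 without PT 2. Trp63, at -0.19, turned to 0.39, 0.31 and 0.26 without CTC 1, CTC 2 or PT 3. The cause was not tested. Leaving out 1 library at a time gave log2 fold changes from -13.58 to -1.49 for Krt5, -3.16 to -0.05 for Krt14, -1.61 to -0.42 for Krt15, -4.41 to -0.61 for Krt17, -3.66 to -0.35 for Krt6a, -4.84 to 0.98 for Krt6b and -3.65 to 0.39 for Trp63. The difference in the basal keratin share (CTC minus PT, percentage points) ranged from -24.3 to 2.20. The replicate block changed no call. Over all genes, edgeR called 0, DESeq2 87 and edgeR with no filter 199. With DESeq2, 1 gene was called in the hemidesmosome list (Lama3) and 1 among luminal regulators (Cd14). With no filter, 2 were called in the p63 network (Tfap2c and Bmp7), 2 in the hemidesmosome list (Lama3 and Dst), 2 among activated keratinocyte genes (Il1a and Il1b), 1 among luminal regulators (Cd14), 1 among cornifying genes (Ivl) and 1 among adipocyte genes (Fabp4). With a prior count of 0.5, the 3 genes nearest to each member were the same for Krt6b, 2 of 3 for Krt5, Krt14 and Krt17, and 1 of 3 for Krt15, Krt6a and Trp63. Depth did not limit Krt14 or Krt6a, whereas Krt5 and Krt15 in CTC 1 were at 0 counts.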

Other observations

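Luminal regulators summed to 95.6, 72.3 and 493 CPM in CTC 1, 2 and 3, against 155, 601 and 250 CPM in PT. Of 15 genes 8 were tested and none was called by edgeR, and the milk genes Csn2, Wap and Lalba and the progesterone receptor gene Pgr had 0 counts in all libraries. Foxa1, a factor of hormone-sensing luminal cells, was at 8.39, 1.88 and 1.50 CPM in CTC 1, 2 and 3, against 0.183, 0.671 and 1.30 CPM in PT. Cd14 was at 47.8, 34.4 and 77.9 CPM in CTC 1, 2 and 3, against 85.3, 470 and 133 CPM in PT. Areg, a ligand of the EGF receptor, was at 187 CPM in CTC 3 and between 22.7 and 77.4 CPM elsewhere. Ltf, which encodes lactoferrin, reached 194 CPM in CTC 3 and, in PT 2, 70.7 CPM, with at most 29.2 CPM elsewhere.

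Il1a, a cytokine of activated keratinocytes, was at 103 CPM in CTC 1 and at most 3.73 CPM in the other 5 libraries. Trp63, Krt5, Krt14 and Krt15 were lowest in CTC 1, Krt6a and Krt6b in CTC 2, and Krt17 in PT 3. A link between Il1a and these genes was not tested.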
